A study of Mus musculus with 40 samples.

Results

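The genes described here carry the bile acid signal of the farnesoid X receptor (FXR) and its hormone FGF15. They were the 6 genes named for that pathway: *Nr1h4*, *Nr0b2*, *Fgf15*, *Fgfr4*, *Klb* and *Nr5a2*. Of these, 5 had a row among the 15958 genes of the expression table, and all 5 passed the filter on low values in each tissue. *Fgf15* was not analysed here. Wild-type male C57BL/6 mice had a sham operation or a small bowel resection (SBR), of 50% to 60% by the labels, at 8 weeks of age. The methods of the study state a larger resection than the labels do. From 3 weeks after surgery they received vehicle or WUSTL0717, an agonist of the liver X receptors (LXR), at 30 mg/kg each day for 7 weeks. RNA from the duodenum and the ileum was sequenced in 3 sham vehicle, 4 SBR vehicle and 4 SBR WUSTL0717 libraries per region, and from the liver in 5, 8 and 5. None of these groups combined WUSTL0717 with sham surgery, so every drug comparison is within resected mice. The sources used here do not tie a library to a mouse, and p-values measure the spread between libraries.

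FXR, the product of *Nr1h4*, is a nuclear receptor that is switched on by bile acids. In ileal enterocytes it induces FGF15, which travels to the liver and binds FGFR4 together with its co-receptor beta-Klotho, the product of *Klb*, and there lowers bile acid synthesis. In both organs FXR also induces SHP, the product of *Nr0b2*, a repressor without a DNA-binding domain that acts on LRH-1, the product of *Nr5a2*, which drives genes of bile acid synthesis in the liver.

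Values are log2 TPM, a unit scaled for transcript length and library size, after a batch correction in which the intestinal libraries were batch 1 and the liver libraries batch 2. Tissue and batch therefore cannot be told apart for liver against intestine, and a gene's levels were compared only within a tissue or between the 2 intestinal regions. Because the correction moved each gene by its own amount, levels of different genes were not compared. Such a correction can also rescale a gene's spread. Differences are therefore on the corrected scale, and which gene has the larger one is to be read with that limit. In both regions the LXR target *Abca1* rose with the drug, by 3.55 ± 0.50 (SE) in the duodenum and 2.79 ± 0.34 in the ileum on the log2 scale (limma adjusted p = 0.0136 and 0.0165). Of the markers used to check each tissue, the ileal list (*Fabp6*, *Slc10a2*, *Slc51b*) had a mean log2 TPM between 5.09 and 7.03 in ileal libraries and between 0.67 and 1.54 in duodenal ones. Some libraries stood apart. SBR WUSTL0717 replicate 2 of the ileum had a mean of 9.25 over 5 hepatocyte markers, against 6.73 to 8.04 in the other ileal libraries, and SBR vehicle replicate 7 of the liver had a mean of 7.54 over 6 exocrine pancreas markers, against 2.16 to 2.38 in the other liver libraries. Pancreatic markers ranged from 1.83 to 7.61 among duodenal libraries and from -0.56 to -0.43 among ileal ones. In bulk tissue, fewer cells of a type and less RNA per cell cannot be told apart.

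In GENCODE M21 (GRCm38), *Nr1h4* (ENSMUSG00000047638.15) lies on the minus strand at chr10:89454234-89533585, *Nr0b2* (ENSMUSG00000037583.2) on the plus strand at chr4:133553376-133556536, and *Nr5a2* (ENSMUSG00000026398.14) on the minus strand at chr1:136842571-136960448. *Fgfr4* (ENSMUSG00000005320.9) lies on the plus strand at chr13:55152640-55168759 and *Klb* (ENSMUSG00000029195.10) on the plus strand at chr5:65348314-65384007, and all 5 are protein-coding. The promoters of the genes with the largest differences in the ileum are shown because FXR and LRH-1 are DNA-binding receptors. Each is the 250 bases upstream of a RefSeq start (GRCm38.p6), read 5′ to 3′ on the gene's strand. Capitals mark the LRH-1 core TCAAGG and the nuclear receptor half-site AGGTCA, on either strand. The *Nr0b2* stretch is chr4:133553126-133553375, and the *Nr1h4* stretch is chr10:89506659-89506908, which lies before a start inside the GENCODE gene.
Nr0b2: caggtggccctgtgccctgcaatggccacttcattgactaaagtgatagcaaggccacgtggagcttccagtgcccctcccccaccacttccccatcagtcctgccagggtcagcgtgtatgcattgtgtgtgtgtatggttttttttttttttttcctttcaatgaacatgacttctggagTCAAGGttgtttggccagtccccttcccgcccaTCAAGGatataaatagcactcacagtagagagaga
Nr1h4: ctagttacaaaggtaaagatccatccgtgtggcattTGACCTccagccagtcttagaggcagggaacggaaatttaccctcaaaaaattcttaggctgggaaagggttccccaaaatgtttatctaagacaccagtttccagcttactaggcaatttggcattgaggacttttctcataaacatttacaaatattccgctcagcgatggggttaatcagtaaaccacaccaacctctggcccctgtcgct
The *Nr0b2* promoter held TCAAGG 2 times, at -68 and -35 from the start. At least 1 TCAAGG on either strand occurred in 12.5% of 32851 RefSeq promoter windows of this length, and at least 2 in 0.922%. The *Nr1h4* window held AGGTCA 1 time, on the opposite strand at -214, as 14.0% of windows did at least once on either strand. Of the other members, 1 of the *Nr5a2* windows held AGGTCA, at -64, and the *Fgfr4* and *Klb* windows held neither motif. The full FXR element IR-1, a pair of half-sites in inverted order with 1 base between them, searched without a mismatch, was in none of the members' windows and in 0.0335% of all windows. These are matches of letters and no measure of binding.

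In sham mice, *Nr0b2* had the largest estimate of the members between the 2 intestinal regions. Its log2 TPM in sham mice was 5.59, 6.53 and 6.03 in the duodenum and 0.65, 0.83 and 1.77 in the ileum. Every duodenal library of the series, at 4.96 or above, lay over every ileal one, at 3.76 or below. The sham difference, ileum minus duodenum, was -4.97 ± 0.46 (limma adjusted p = 8.42e-08). The duodenal libraries carried pancreatic markers, and their part in this difference was not tested.

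The transcription factor gene *Nr5a2* was ordered the other way. It was at 3.56, 3.16 and 3.99 in the sham duodenum and at 4.92, 5.29 and 5.17 in the sham ileum, without overlap, a difference of 1.55 ± 0.38 (adjusted p = 0.00839). *Nr1h4* (1.20 ± 0.51, adjusted p = 0.113) and *Fgfr4* (1.20 ± 0.44, adjusted p = 0.0731, or 0.0355 without ileal SBR WUSTL0717 replicate 2) had higher ileal estimates that did not pass the test as fitted on all libraries, and *Klb* differed by -0.03 ± 0.60. Thus 2 of 5 members were called, where 14.6% of all tested genes were. The median gene was 0.52 higher in the ileum, so these differences are to be read against that shift. The exact permutation test cannot go below 0.1 with 3 libraries on each side, and it reached that value for all members except *Klb*. Among genes of ileal bile acid handling, *Fabp6*, which binds bile acids in the cell, was higher by 7.04 ± 0.45 and *Slc10a2*, which takes them up from the lumen, by 4.14 ± 0.29 in the sham ileum.

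**Figure D1:**
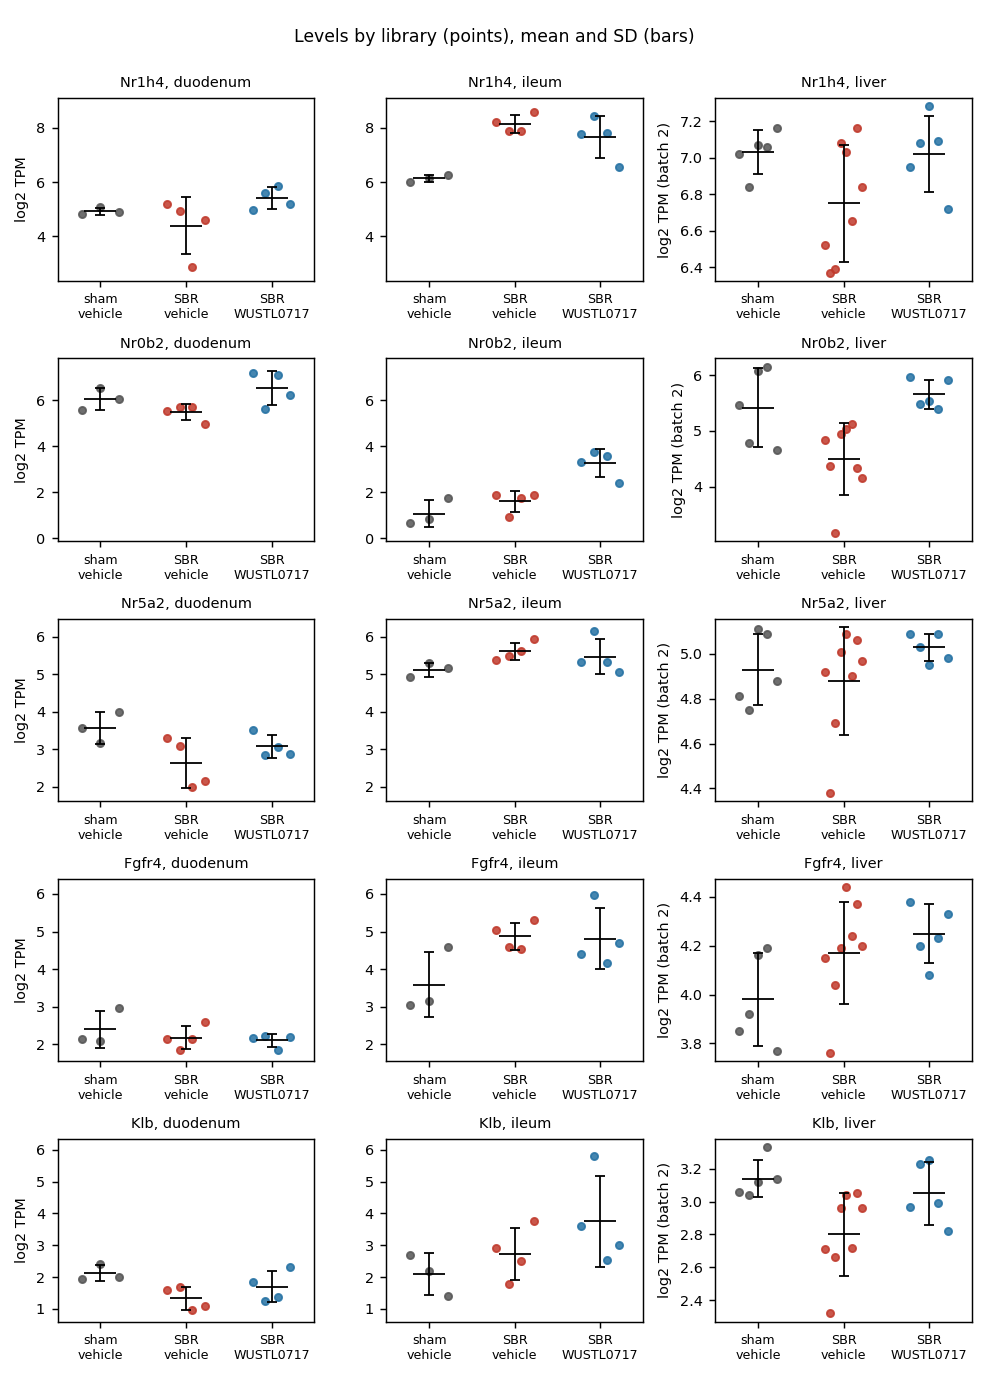
Log2 TPM of each library (points) for the 5 members in rows and the duodenum, ileum and liver in columns, with the mean and SD of each group as bars. The duodenum and ileum share a vertical axis within a gene; the liver has its own because it was another batch. Ileal *Nr1h4* sits between 7.87 and 8.59 after SBR and between 6.01 and 6.26 in sham mice, and ileal *Nr0b2* is higher with WUSTL0717 than in both vehicle groups.

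The first question was what resection did to the pathway in the ileum that remained. Of the members, the gene of FXR had the largest estimate. *Nr1h4* was at 6.01, 6.13 and 6.26 in sham mice and at 8.19, 7.87, 7.88 and 8.59 after SBR with vehicle. All 4 resected libraries lay above all 3 sham libraries, by 2.00 ± 0.40 (SE) on the corrected log2 scale. Over all genes this gave an adjusted p of 0.067 in limma, short of the threshold of 0.05. The exact two-sided permutation test gave p = 0.0571, the smallest it can give with 3 and 4 libraries. It passed under 4 of 11 alternative settings, among them median centring (adjusted p = 0.0276), and with none of the 7 libraries left out in turn (adjusted p = 0.117 to 0.27).

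The other members had smaller estimates in the ileum. *Nr5a2* was at 4.92, 5.29 and 5.17 in sham mice and at 5.39, 5.50, 5.63 and 5.93 after SBR, without overlap, but by 0.49 ± 0.29 (adjusted p = 0.77). *Fgfr4*, the receptor of FGF15, had an estimate of 1.27 ± 0.48 (adjusted p = 0.415), with sham replicate 3 at 4.59 above 2 of the resected libraries. *Klb* (0.64 ± 0.69) and *Nr0b2* (0.53 ± 0.39) overlapped between the groups. With limma none of the 5 members was called, against 0.349% of all genes, and 2 of 5 had an unadjusted p under 0.05, against 8.46% of all genes. The unmoderated two-sample test called none either. Members whose groups did not overlap were 2 of 5, against 9.5% of all genes.

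Of the genes of ileal bile acid transport, *Fabp6* and *Slc10a2* rose over the same comparison. *Fabp6* was at 6.10 ± 0.24 (SD) in sham mice and 8.15 ± 0.24 after SBR, a rise of 2.05 ± 0.29 (SE, adjusted p = 0.0137), and *Slc10a2* rose by 2.02 ± 0.30, from 4.82 ± 0.38 to 6.84 ± 0.11 (adjusted p = 0.0145). *Slc51a* and *Slc51b*, the basolateral bile acid exporter, differed by 0.69 ± 0.22 (adjusted p = 0.306) and 0.35 ± 0.24 (adjusted p = 0.828). Of the 7 genes listed as ileal FXR targets and bile acid handling, 2 rose and none fell, against 0.349% of all genes called in either direction, with a median of 0.54 against 0.07 over all genes. Outside that list, *Sdc1*, a cell-surface proteoglycan that FXR induces in the liver, rose by 2.11 ± 0.33 (adjusted p = 0.0181), and *Acox2*, a peroxisomal oxidase of bile acid side chains, rose by 2.62 ± 0.38 (adjusted p = 0.0145). None of these 4 calls held throughout. Leaving out sham replicate 2 raised each adjusted p to 0.0984, and with 1 of the 7 libraries left out *Fabp6* and *Slc10a2* were called in 3 fits each, *Sdc1* in 1 and *Acox2* in 4, the other losses lying at sham replicates 1 and 3 and SBR vehicle replicates 1, 2 and 3. Each was also called under 8 of 11 alternative settings, with adjusted p up to 0.0975 for *Fabp6*, 0.116 for *Slc10a2*, 0.153 for *Sdc1* and 0.212 for *Acox2*. None of the 14 tested genes of the FGF receptor signal chain was called, with *Mapk3* the nearest at 0.87 ± 0.30 (adjusted p = 0.346).

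The ileal marker list is itself made of 3 of these genes, so other markers were read for the makeup of the tissue. The mean of 5 general enterocyte markers was 5.97 to 6.12 in sham libraries and 6.13 to 6.39 after SBR, and the mean of 5 smooth muscle markers was 4.13 to 5.69 and 4.74 to 5.60. Leukocyte markers were at 4.29 to 5.05 and 3.92 to 4.91, stellate cell and fibroblast markers at 3.98 to 4.99 and 4.78 to 5.83, and hepatocyte markers at 6.73 to 6.92 and 6.88 to 8.04. Within the hepatocyte list, the group means of *Tat* (7.12 and 9.25) and *Ttr* (5.73 and 7.28) were higher after SBR. Those of *Alb* (9.35 and 9.33), *Serpina1a* (5.24 and 5.22) and *Apoa2* (6.56 and 5.98) were not. The 4 genes listed as cholangiocyte markers were at 5.10 to 5.30 and 5.49 to 6.05, without overlap. The part of these shifts in the results was not tested. By the methods of the study, the sequenced ileum of sham and resected mice lay after the rejoined cut. Both operations made that cut at the same stated distance before the ileocecal junction. The labels give no position along the ileum, and a difference in where the tissue was taken was not tested.

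**Figure D2:**
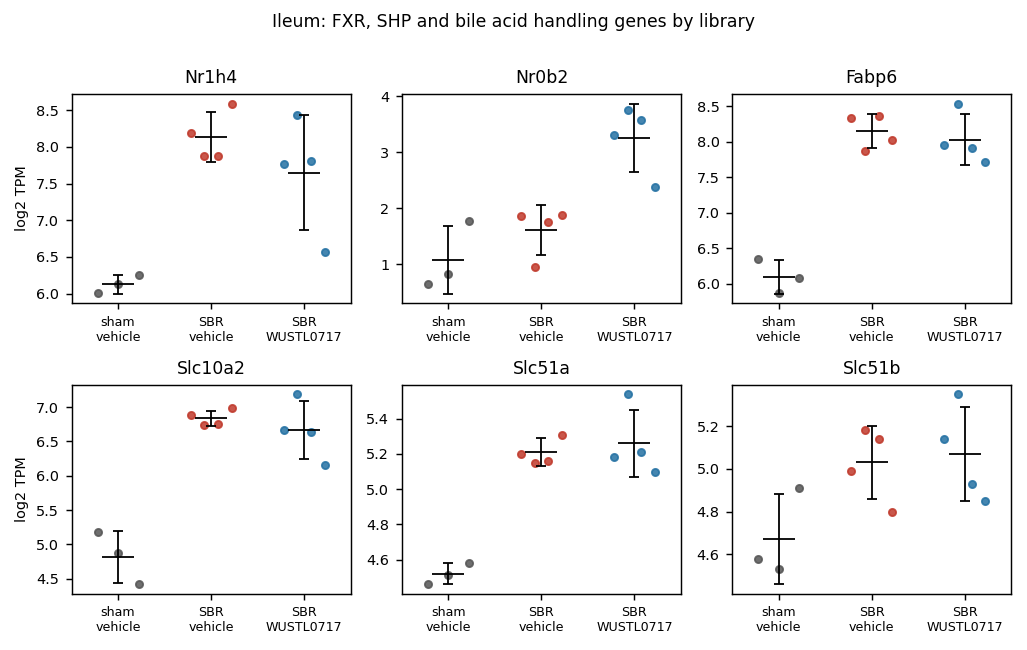
Log2 TPM in each ileal library (points; mean and SD as bars) of *Nr1h4*, *Nr0b2* and 4 genes of bile acid handling. *Nr1h4*, *Fabp6*, *Slc10a2* and *Slc51a* are above the sham libraries in every resected library with either treatment, whereas *Nr0b2* is highest in the 4 WUSTL0717 libraries, at 2.39 to 3.76, and at 1.88 or below in all others.

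In the ileum of resected mice, WUSTL0717 was compared with vehicle. *Nr0b2*, at 1.87, 0.95, 1.75 and 1.88 with vehicle, was at 3.31, 3.76, 3.57 and 2.39 with the drug. Each treated library was above each vehicle library, by 1.65 ± 0.36 (SE). This difference was 0.95 with a pseudocount of 5 and 2.03 with one of 0.1, both from values that still carried the batch correction. The exact permutation test gave p = 0.0286, the smallest it can give with 4 against 4, but limma's adjusted p over all genes was 0.31. Without SBR WUSTL0717 replicate 2, the library with hepatocyte markers, the difference was 1.48 (adjusted p = 0.24).

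*Nr1h4* did not pass with the drug. It was at 7.76, 8.44, 7.81 and 6.57 with the drug, a difference of -0.49 ± 0.37 (adjusted p = 0.908), with 3 of 4 treated libraries below all vehicle libraries. Without SBR WUSTL0717 replicate 2 the *Nr1h4* difference was -0.75. *Klb* had an estimate of 1.02 ± 0.64 that came largely from replicate 2, at 5.81 where the other treated libraries were at 3.62, 2.55 and 3.02. Without that library it was 0.33. *Fgfr4* was also highest in replicate 2, at 5.98, and differed by -0.05 ± 0.44, or by -0.44 without it. *Nr5a2* differed by -0.14 ± 0.27, or by -0.37 without replicate 2. With limma none of 5 members was called, against 0.0697% of all genes, 1 of 5 had an unadjusted p under 0.05, against 6.87%, and 1 of 5 did not overlap, against 3.83%. The unmoderated two-sample test called none of them.

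*Fabp6* and *Slc10a2*, which rose after SBR, had estimates of -0.12 ± 0.27 and -0.18 ± 0.27 for the drug. *Slc51a* differed by 0.05 ± 0.20 and *Slc51b* by 0.04 ± 0.22, and none of the 7 genes of that list was called (median -0.12). Against sham mice, a comparison that shares its libraries with the other 2, treated resected mice had *Nr0b2* higher by 2.17 ± 0.39 (adjusted p = 0.0177) and *Nr1h4* by 1.51 ± 0.40 (adjusted p = 0.0774), both without overlap. This was 1 call in 5 members, against 2.17% of all genes, and 2 of 5 without overlap, against 13.2%. *Nr0b2* lost its call in the unmoderated two-sample test (adjusted p = 0.193) and with the compared groups alone (0.0524), and its estimate ran from 1.15 with a pseudocount of 5 to 2.91 with one of 0.1. The call was also lost without sham replicate 1, sham replicate 2 or SBR WUSTL0717 replicate 3 (adjusted p = 0.0979, 0.0889 and 0.0544), and *Nr1h4* passed without SBR WUSTL0717 replicate 4 (1.87, adjusted p = 0.0237). *Nr5a2* differed by 0.35 ± 0.29, or by 0.12 without SBR WUSTL0717 replicate 2.

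**Figure D3:**
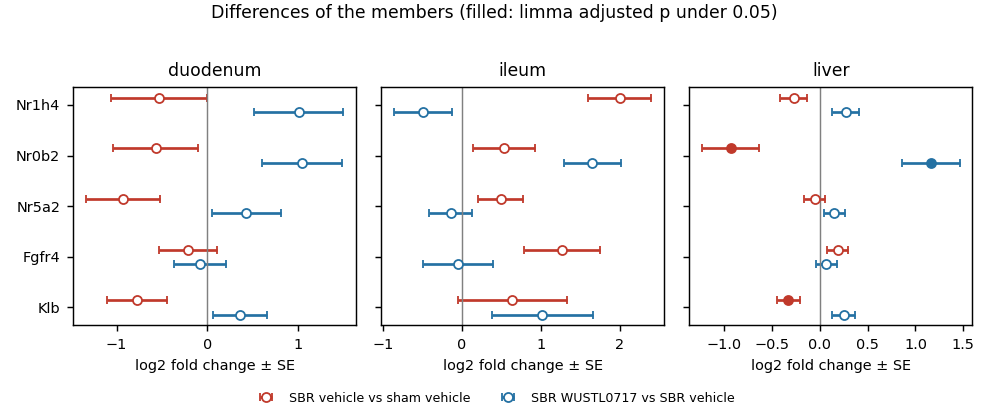
Log2 fold change with its SE for each member (rows) in the 3 tissues, for SBR vehicle against sham vehicle (red) and SBR WUSTL0717 against SBR vehicle (blue). Filled points passed the limma threshold of 0.05: *Nr0b2* in both liver comparisons and *Klb* in the liver after SBR.

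In the duodenum, which lies upstream of the resected bowel, no member passed the test in either comparison. After SBR with vehicle all 5 estimates were below 0, as was the median of all genes at -0.36. *Klb* was at 1.95, 2.41 and 2.01 in sham mice and at 1.61, 1.68, 0.98 and 1.08 after SBR, without overlap (-0.78 ± 0.33, adjusted p = 0.284). *Nr5a2* differed by -0.93 ± 0.41 (adjusted p = 0.298), *Nr0b2* by -0.57 ± 0.47 and *Fgfr4* by -0.21 ± 0.32, an estimate that turned to 0.19 after median centring. *Nr1h4* differed by -0.53 ± 0.53 with SBR vehicle replicate 3, at 2.88, under the other 3 libraries at 4.60 to 5.19. Without it the difference was -0.02. With limma 0 of 5 members were called, as were 0.0% of all genes, and 2 of 5 had an unadjusted p under 0.05, against 16.1%. The groups of 1 of 5 members did not overlap, against 9.65% of all genes.

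With WUSTL0717 the duodenal estimates of *Nr0b2* and *Nr1h4* were positive. *Nr0b2* was at 5.53, 5.72, 5.72 and 4.96 with vehicle and at 7.17, 5.63, 7.09 and 6.22 with the drug, with 3 of 4 treated libraries above all vehicle libraries (1.04 ± 0.44, adjusted p = 0.844, exact permutation p = 0.0857). *Nr1h4* was at 5.19, 4.95, 2.88 and 4.60 with vehicle and at 4.98, 5.60, 5.87 and 5.20 with the drug (1.01 ± 0.49, adjusted p = 0.975). Without SBR vehicle replicate 3 that difference was 0.50. *Klb* (0.36 ± 0.30), *Nr5a2* (0.43 ± 0.38) and *Fgfr4* (-0.08 ± 0.29) overlapped. Without SBR vehicle replicate 3 they differed by 0.24, 0.22 and -0.09, and *Nr0b2* by 1.12. With limma and with the unmoderated two-sample test 0 of 5 members were called, where limma called 0.258% of all genes, and 1 of 5 had an unadjusted p under 0.05, against 5.31%. None of the 5 was free of overlap, against 3.15%. The mean of the pancreatic markers was 3.52 to 7.46 in sham, 1.83 to 6.82 in SBR vehicle and 4.53 to 7.61 in treated libraries, and its part in these values was not tested.

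Around the members in the duodenum, the one listed gene to pass was *Hsd17b4*, a peroxisomal enzyme of bile acid side chain shortening, which rose with the drug by 2.35 ± 0.41, from 7.28 ± 0.51 (SD) to 9.63 ± 0.31 (adjusted p = 0.0328). Its groups did not overlap, but the call was lost when any 1 of the 8 libraries was left out, with an adjusted p up to 0.163, and under 5 of 11 alternative settings, with an adjusted p up to 0.195. *Slc51a* and *Slc51b* differed by 0.04 ± 0.28 and -0.21 ± 0.34 with the drug. After SBR no gene of the 7 pathway lists was called as deposited, with *Acox2* the nearest (2.89 ± 0.44, adjusted p = 0.0822). *Acox2* was called under 5 of 11 alternative settings (adjusted p down to 0.00941), and the calls over all genes went from 0 to 95 with median centring and to 2497 with library weights.

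The effects in the 2 intestinal regions were then set against each other in 1 model. The SBR effect on *Nr1h4* was 2.53 ± 0.67 larger in the ileum than in the duodenum, the largest such difference among the members, with an unadjusted p of 0.00113 and an adjusted p of 0.177. Without duodenal SBR vehicle replicate 3 it was 2.02 (adjusted p = 0.266), and without replicate 1 it passed, at 2.79 (adjusted p = 0.0437). For the other members the SBR effects differed by 1.09 to 1.49, none of them past the threshold, and 0.0754% of all genes were. The median gene had an SBR effect 0.44 larger in the ileum, so the members' values are to be read against that shift. For WUSTL0717 the effects differed by 0.60 ± 0.56 for *Nr0b2* and by -1.49 ± 0.62 for *Nr1h4*, both with an adjusted p of 1.0. Of all genes, 0.0251% passed that test. Without duodenal SBR vehicle replicate 3 these drug values were 0.52 for *Nr0b2* and -0.99 for *Nr1h4*. Without ileal SBR WUSTL0717 replicate 2 they were 0.44 and -1.76. The transport gene *Slc10a2* had an SBR effect larger by 1.89 ± 0.38 in the ileum (adjusted p = 0.0664).

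In the liver, where FGF15 acts, resection was followed by lower *Nr0b2* and *Klb*. The 5 sham livers had *Nr0b2* at 5.46, 4.78, 6.07, 6.15 and 4.66, and the 8 SBR vehicle livers ranged from 3.18 to 5.13 with a median of 4.60. The groups overlapped, with 4 of 8 resected livers under all sham livers. *Nr0b2* fell by 0.93 ± 0.30 (SE) on the log2 scale (adjusted p = 0.0192, exact permutation p = 0.0326). The call was lost in the unmoderated two-sample test (adjusted p = 0.0780) and without sham replicate 3 or sham replicate 4, the highest 2 of that group (adjusted p = 0.0633 and 0.0634).

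*Klb*, the co-receptor, was at 3.06, 3.04, 3.12, 3.33 and 3.14 in sham livers and ranged from 2.32 to 3.05 after SBR, with a median of 2.84. Of the 8 resected livers, 7 were under all sham livers. It fell by 0.33 ± 0.12 (adjusted p = 0.0309, exact permutation p = 0.00311), and the adjusted p was between 0.0503 and 0.0811 when sham replicate 3, 4 or 5 or SBR vehicle replicate 1 or 6 was left out.

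The other hepatic members did not pass as deposited. *Nr1h4* was at 7.02, 6.84, 7.07, 7.06 and 7.16 in sham livers and from 6.37 to 7.16 after SBR, a difference of -0.27 ± 0.14 (adjusted p = 0.115). *Nr5a2* differed by -0.05 ± 0.11 (adjusted p = 0.728). *Fgfr4* differed by 0.19 ± 0.11 (adjusted p = 0.158), by -0.11 after median centring and by -0.10 after quantile normalization, and by 0.25 (adjusted p = 0.0246) without SBR vehicle replicate 2. In all, 2 of 5 members were called, both lower. Among all genes 41.9% were called and 4.47% were called lower. No member was free of overlap, against 17.2% of all genes.

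Much of the liver table moved upward after SBR, by a median of 0.25 over all genes, and the calls depended on the scaling between libraries. As deposited, 5953 of the 6663 called genes were higher. After each library was centred on its median, 3234 of 7828 were. After median centring 4 of 5 members were called, all lower, where 7828 of all 15901 genes were called and 4594 of them were lower. They were *Nr0b2* at -1.23, *Klb* at -0.64, *Nr1h4* at -0.58 (adjusted p = 0.00014) and *Nr5a2* at -0.36 (adjusted p = 1.08e-05). Markers of other liver cells moved in the same comparison. The mean of 4 cholangiocyte markers was 3.41 to 4.32 in sham and 5.52 to 6.25 in SBR vehicle livers, that of 4 stellate cell and fibroblast markers 3.73 to 4.38 and 5.49 to 6.26, and that of 5 hepatocyte markers 7.79 to 8.30 and 6.69 to 7.91. The hepatocyte mean of 6.69 was that of SBR vehicle replicate 2, and the next lowest was 7.51. The part of these markers in the lower levels of the members, which hepatocytes express, was not tested. Without SBR vehicle replicate 7, the library with pancreatic markers, *Nr0b2* differed by -0.90 (adjusted p = 0.0336) and *Klb* by -0.37 (adjusted p = 0.0223).

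**Figure D4:**
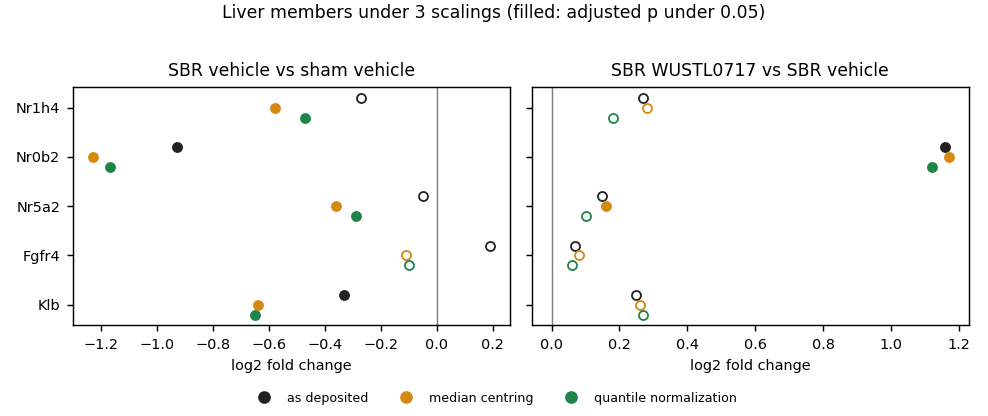
Log2 fold change of the 5 members in the liver as deposited (black), after centring each library on its median (orange) and after quantile normalization (green); filled points had a limma adjusted p under 0.05. After SBR, *Fgfr4* changes sign with the scaling and *Nr1h4* and *Nr5a2* pass the threshold only when rescaled, whereas *Nr0b2* passes under all 3 in both comparisons.

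Genes downstream of the hepatic signal changed in the same livers. Of 12 tested genes of bile acid synthesis 6 fell and none rose, where 4.47% of all genes fell and 37.4% rose, with a median of -0.36 against 0.25 over all genes. These shares, also used for the lists below, depend on the scaling. After median centring 4594 of 15901 genes were called lower and 3234 higher, and list counts under that scaling are not given. *Cyp7b1*, of the alternative pathway, fell from 4.99 ± 0.22 (SD) to 2.60 ± 0.26, by 2.39 ± 0.16 (SE, adjusted p = 1.04e-08), and *Cyp8b1*, which sets the share of cholic acid, fell from 5.14 ± 0.37 to 4.18 ± 0.58, by 0.96 ± 0.28 (adjusted p = 0.00951). *Slc27a5* and *Baat*, which link bile acids to coenzyme A and then to taurine or glycine, fell by 0.63 ± 0.14 and 0.51 ± 0.14 (adjusted p = 0.0013 and 0.0079). The rate-limiting *Cyp7a1* differed by 0.01 ± 0.25 (adjusted p = 0.978), and its sign turned with the scaling.

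The uptake carriers *Slc10a1* and *Slco1b2* fell by 1.00 ± 0.18 and 0.66 ± 0.13, and the basolateral exporter *Slc51b* rose by 0.92 ± 0.23 (adjusted p = 0.00315), while the canalicular pump *Abcb11* differed by -0.18 ± 0.13 (adjusted p = 0.26). Among 10 listed hepatic FXR targets 3 rose and 2 fell, against 37.4% and 4.47% of all genes.

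Among the other ligands and receptors of the FGF system, 4 of 6 tested genes rose and 1 fell in these livers, where 37.4% of all genes rose and 4.47% fell. *Fgf21*, a liver hormone that also signals through beta-Klotho, was at 1.39 ± 0.35 (SD) in sham and 4.03 ± 0.58 in SBR vehicle livers, a rise of 2.64 ± 0.27 (SE, adjusted p = 5.12e-07) without overlap. *Fgfr1* and *Fgfr3*, which are receptors of other FGF ligands too, rose by 1.11 ± 0.14 and 1.25 ± 0.14. The ligand *Fgf1* fell by 0.83 ± 0.19, from 4.15 to 3.32 (adjusted p = 0.00167). In the signal chain below the receptors 8 of 14 rose and none fell, against 37.4% of all genes that rose, among them the feedback inhibitors *Spry2* (1.02 ± 0.12) and *Dusp6* (0.95 ± 0.14) and the kinase *Mapk3* (0.82 ± 0.12). *Fgfr1*, *Spry2* and *Dusp6* are not restricted to hepatocytes, and the cell type markers above moved with them.

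**Figure D5:**
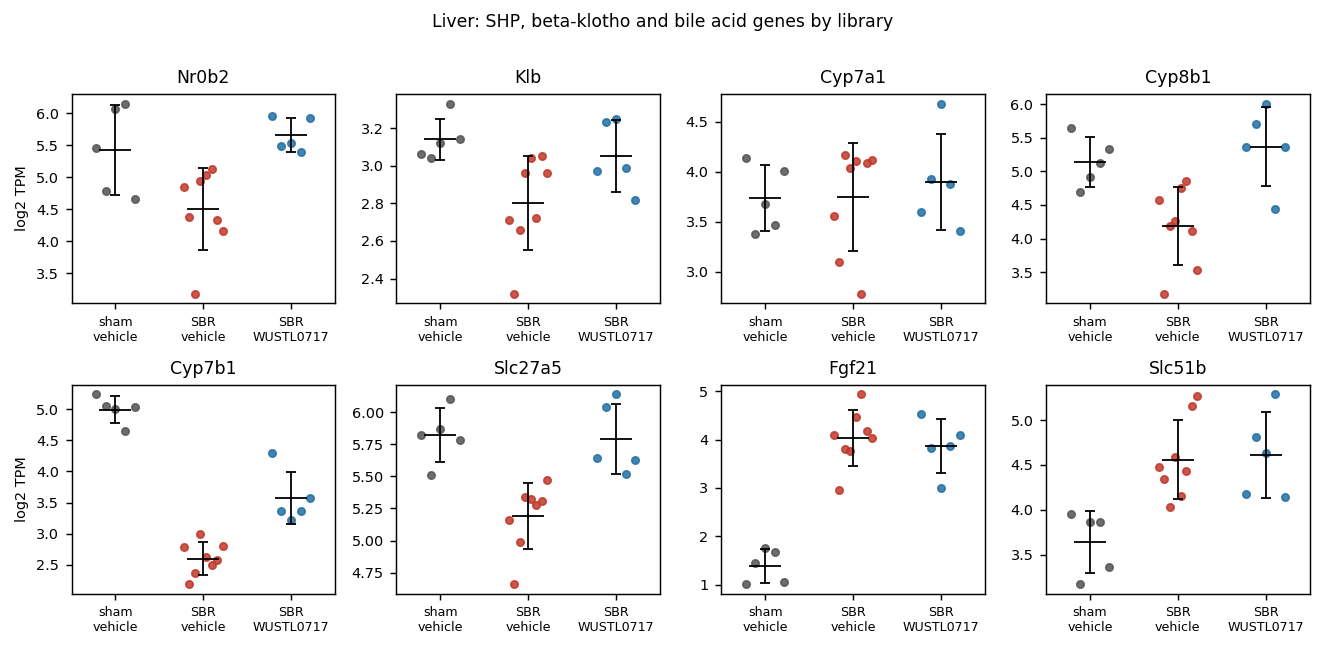
Log2 TPM in each liver library (points; mean and SD as bars) of *Nr0b2*, *Klb*, 4 genes of bile acid synthesis and conjugation, *Fgf21* and *Slc51b*. *Nr0b2*, *Cyp8b1*, *Cyp7b1* and *Slc27a5* are lower in SBR vehicle livers and higher with WUSTL0717, whereas *Fgf21* and *Slc51b* are at similar means in both resected groups, 4.03 and 3.86 for *Fgf21* and 4.56 and 4.61 for *Slc51b*.

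With WUSTL0717, *Nr0b2* in the liver of resected mice was higher. It was at 5.96, 5.48, 5.54, 5.39 and 5.92, and every treated liver was above every vehicle liver, of which the highest was 5.13. The rise was 1.16 ± 0.30 (SE, adjusted p = 0.0358), and the exact permutation test gave p = 0.00155, the smallest it can give with 5 against 8. The call was lost in the unmoderated two-sample test (adjusted p = 0.123) and with the compared groups alone (0.0540). The adjusted p rose to between 0.057 and 0.111 when 1 of 6 libraries was left out (treated replicates 1, 2, 3 and 5, and SBR vehicle replicates 7 and 8). Without replicate 7, the library with pancreatic markers, the rise was 1.14 (adjusted p = 0.065). Against sham livers, a comparison that shares its libraries with the other 2, treated livers differed by 0.24 ± 0.34 (adjusted p = 0.591).

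The other hepatic members did not pass with the drug. *Klb* was at 2.97, 3.23, 3.25, 2.99 and 2.82 (0.25 ± 0.12, adjusted p = 0.288), *Nr1h4* at 6.95, 7.08, 7.28, 7.09 and 6.72 (0.27 ± 0.14, adjusted p = 0.333), and *Nr5a2* at 5.09, 5.03, 4.95, 5.09 and 4.98 (0.15 ± 0.11, adjusted p = 0.538). Each overlapped the vehicle livers. *Fgfr4* differed by 0.07 ± 0.11. So 1 of 5 members was called, higher, where 4.1% of all genes were called and 1.44% were called higher, and 1 of 5 was free of overlap, against 1.54%.

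Of the 12 genes of bile acid synthesis 4 rose with the drug and none fell, where 1.44% of all genes rose among 4.1% called, with a median of 0.42 against 0.02 over all genes. Of all called genes 35.1% were higher as deposited and 58.7% after median centring. *Cyp8b1* rose by 1.19 ± 0.28 (adjusted p = 0.0218), *Cyp7b1* by 0.96 ± 0.16 (adjusted p = 0.00679) and *Slc27a5* by 0.60 ± 0.14 (adjusted p = 0.0209). *Cyp7a1* differed by 0.15 ± 0.25 (adjusted p = 0.846), *Fgf21* by -0.16 ± 0.27 (adjusted p = 0.844) and *Slc51b* by 0.05 ± 0.23. *Slco1b2* rose by 0.50 ± 0.13 (adjusted p = 0.0341) and *Abcb11* differed by 0.36 ± 0.13 (adjusted p = 0.137). *Fgfr1* fell by 0.72 ± 0.14 (adjusted p = 0.0102), *Fgfr3* by 0.62 ± 0.14 (adjusted p = 0.0175) and *Spry2* by 0.47 ± 0.12 (adjusted p = 0.0277). The unmoderated two-sample test called none of these genes, and 0 of all genes in this comparison. *Cyp8b1* lost its limma call without treated replicate 1, 2 or 3 (adjusted p up to 0.0942), *Fgfr3* without the same libraries (up to 0.0711) and *Slc27a5* without replicate 2 or 3 (up to 0.0893). *Slco1b2* and *Spry2* lost theirs without treated replicate 1, 2, 3 or 5 or without 1 vehicle library, replicate 1 and replicate 6 respectively (up to 0.103 and 0.116). The cholangiocyte mean was 4.54 to 5.68 and the stellate cell and fibroblast mean 4.88 to 5.78 in treated livers, between the other 2 groups in their medians, and the hepatocyte mean was 7.83 to 8.30. Their part in these changes was not tested.

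Across libraries, the genes whose levels ran closest to a member were found by Pearson r, over 18 libraries in the liver and 11 in the ileum, which share groups and depth. For hepatic *Nr1h4* they included *Ppara*, a fatty acid receptor of the same superfamily (r = 0.914, and 0.907 after the group means were taken out), beside *Bnip3* (0.918) and *Il15ra* (0.903). For *Klb* they included *Proc* (0.942), *1300017J02Rik* (0.937) and *Mtfp1* (0.931), for *Nr5a2* *Prkaa2* (0.947) and *Higd2a* (0.945), and for *Fgfr4* *Creg1* (0.956), *Ap2a2* (0.935) and *Ppp1r2* (0.930). Hepatic *Nr0b2* ran with *4732465J04Rik* (0.931), *Gm3336* (0.924) and *Cth* (0.890). In the ileum *Nr0b2* ran with *Tsc22d1* (0.939), *Lama3* (0.936) and *Slc17a4* (0.921), which dropped to 0.708, 0.763 and 0.602 once the group means were taken out. Among the members themselves, *Nr1h4* and *Klb* had an r of 0.89 in the liver, and 0.86 with the group means taken out, where *Fgfr4* and *Nr5a2* had 0.77 and 0.88. *Nr1h4* and *Nr5a2* had 0.81 and 0.80 in the ileum.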

How the data were processed

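Of the sources used here, the methods and labels state that the authors aligned paired reads with STAR, counted unambiguous reads with featureCounts, scaled them with edgeR's TMM and TPM, took log2 and applied ComBat; the deposited values are log2 TPM. No read totals came with them, so the depth per library is unknown and low values are less certain; library medians ran from 2.13 to 3.82. The pseudocount under the log is not given in the sources used here and was taken as 1 where values were turned back to TPM. Values turned back in this way still carried the batch correction, and 2752 deposited values were below 0. The pseudocount settings therefore do not show how low a gene really is.

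A gene entered the test where its mean over a tissue's libraries reached 1. Differences between the groups of a tissue came from limma 3.58.1 (R 4.3.3), fitted on all 3 groups with eBayes trend moderation, and p-values were adjusted by Benjamini-Hochberg over every gene tested (called under 0.05). Regional differences and differences of effects came from 1 fit of the 6 intestinal groups. Exact two-sided permutation tests ran over all splits of 2 groups (scipy 1.17.1). A standard error (SE) belongs to a fitted difference and an SD to a group. Fits were tested on simulated data. Fold changes are on the corrected log2 scale.

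The members and lists were chosen with earlier results of these data known. Named genes are the members, 8 fixed pathway genes where the tissue uses them, and at most 3 called genes of each list, or the one with the smallest p; a few further called genes serve as examples. Of the genes in the 7 pathway lists, *Hsd3b7*, *Kl*, *Fgf2*, *Frs3*, *Etv4*, *Il17rd* and *Gpbar1* were not analysed here, nor was the marker *Amy2b*. Alternatives covered the filter, pseudocount, scaling, variance model, library weights, groups in the fit, replicate block and single libraries left out.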

Additional observations from a re-analysis of the deposited data

Results flagged for a closer look

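In 35 member and group combinations of 4 to 8 libraries, 2 had a highest or lowest library whose gap to the nearest other, as a share of the group's range, was above Dixon's critical value, and chance alone marks about 1 in 20 groups. *Nr0b2* was at 0.95 in SBR vehicle replicate 2 of the ileum, the lowest of 4. *Fgfr4* was at 1.86 in SBR WUSTL0717 replicate 3 of the duodenum, the lowest of 4.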

How the results depend on the processing

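Of the values recomputed under other settings, 1189 kept their direction and side of the threshold under 11 kinds of setting and 1330 did with 1 library left out; the exceptions for the members, and some for pathway genes, follow, and their cause was not tested. Ileal *Nr1h4* after SBR passed at 2.00 with the filter at a mean of 3, 1.92 with median centring, 1.87 with quantile normalization and 2.02 with library weights, so that 1 ileal member was called under each of these and 0 otherwise. In the liver after SBR, *Nr1h4* passed at -0.58 and -0.47 and *Nr5a2* at -0.36 and -0.29 with median centring and quantile normalization, where 4 members were called. *Fgfr4* reversed there to -0.11 and -0.10, and passed at 0.33 with library weights, which also turned *Nr5a2* to 0.066. *Nr0b2* after SBR lost its call in the unmoderated two-sample test (-0.93), where 1 member was called, as with the filter at 3. *Nr0b2* with the drug lost its call in that test and with the compared groups alone (1.16 in both), where 0 members were called. *Nr5a2* passed at 0.16 with median centring, where 2 were called. Treated against sham livers, *Nr0b2* reversed to -0.066 and -0.058 under the 2 scalings, and *Klb* passed at -0.38 under both. Treated against sham ileum, *Nr0b2* lost its call in the unmoderated two-sample test and with the compared groups alone (2.17 in both), and *Nr1h4* passed with median centring (1.44) and library weights (1.35). In the duodenum after SBR, 1 member (*Klb*) was called with library weights, and *Fgfr4* reversed to 0.19 (median centring), 0.22 (quantile normalization) and 0.022 (library weights). Its regional difference in drug effect reversed to -0.23 with library weights. Library weights also brought past the threshold the sham regional differences of *Fgfr4* (1.26) and *Nr1h4* (1.14) and the regional difference in SBR effect of *Nr1h4* (2.52).

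After SBR, ileal *Fabp6*, *Slc10a2*, *Sdc1* and *Acox2* lost their calls in the unmoderated two-sample test, with the compared groups alone and with the block, and duodenal *Acox2* passed with the filter at 3, both scalings, library weights and no variance trend. Duodenal *Hsd17b4* with the drug lost its call under both scalings, the unmoderated two-sample test, the compared groups alone and the block. Other changed calls of pathway genes are not listed. Among pathway genes near 0, median centring, quantile normalization and library weights turned liver *Cyp7a1* after SBR to -0.30, -0.29 and -0.094, and library weights turned it to -0.11 and *Slc51b* to -0.33 with the drug. Quantile normalization and library weights turned the drug difference of *Slc51a* to -0.035 and -0.077 in the duodenum and to -0.051 and -0.012 in the ileum, and that of ileal *Slc51b* to -0.036 and -0.027. Called genes that were higher were 89.3% in the liver after SBR as deposited, 41.3% with median centring and 45.6% with quantile normalization, 35.1%, 58.7% and 48.8% with the drug, and 73.8%, 41.7% and 46.2% between sham regions.

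With the replicate block, liver *Nr0b2* was at -0.95 after SBR (adjusted p = 0.0646) and 1.19 with the drug (adjusted p = 0.108), leaving 1 and 0 members called, and *Fgf21* with the drug was at 0.048. Calls over all genes moved from 55 to 12 and from 11 to 1 in the ileum. Ileal *Nr0b2*, treated against sham, was at 2.27 and lost its call, and the sham regional difference of *Fgfr4* passed at 1.20 (adjusted p = 0.0466). Same-numbered libraries correlated from r = -0.32 to 0.45, the highest between sham ileum and sham duodenum, where all 3 libraries correlated best with their own number, as a hint from the data (lowest r there 0.070). In no comparison was every pair over 0.1, so the numbers were taken as names.

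With 1 library left out, liver *Nr0b2* ran from -1.12 to -0.74 after SBR and from 0.97 to 1.25 with the drug, *Klb* from -0.37 to -0.26, *Fgfr4* from 0.14 to 0.25 and *Nr5a2* from -0.10 to 0.02 after SBR, with 0 to 3 members called after SBR and 0 to 1 with the drug. *Fgfr4* ran from -0.37 to 0.067 after SBR and from -0.18 to 0.062 with the drug in the duodenum, and from -0.44 to 0.16 with the drug in the ileum. Between the regions, the drug effect of *Fgfr4* ran from -0.37 to 0.24 and of *Klb* from -0.036 to 1.05, and sham *Klb* from -0.32 to 0.32. *Cyp7a1* ran from -0.078 to 0.15 after SBR and from -0.044 to 0.27 with the drug, and *Fgf21* from -0.33 to 0.050. Drug differences of *Slc51a* ran from -0.031 to 0.16 in the duodenum and -0.042 to 0.11 in the ileum, and those of *Slc51b* from -0.35 to 0.0003 in the duodenum, -0.051 to 0.12 in the ileum and -0.12 to 0.17 in the liver. The unknown depth sets no interval for low values such as ileal *Nr0b2* in vehicle groups.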
